A study of Mus musculus with 4 samples.

Results

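The Wnt pathway genes described here are 51 genes of the deposited table of 23874 genes, taken by symbol from a fixed list of ligands, receptors, antagonists, intracellular components and feedback targets. All 51 were found, and they were sorted into 9 roles. RNA was sequenced from mouse engineered neural tissue, in which neurospheres (spheres that neural stem cells and their progeny form in suspension) grow inside Matrigel, a gel of basement membrane proteins. Both groups shared this culture and DMEM/F12 medium with N2, B27 and bFGF at 20 ng/ml, a growth factor that keeps such cells dividing. In the EF group an electric field of 150 mV/mm was applied daily for 30 min, 3 days in all, before 7 days of further culture. The noEF group was unstimulated. Each group had 2 libraries here, where the labels state 3 replicates per group, and nothing says that replicates were cultured separately. The p-values therefore reflect only how these libraries vary, which may be technical. The sample labels call both groups engineered tissue, while a suspension of neural stem cells is the control in the series design. What noEF was is taken from the sample labels.

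Wnt proteins are secreted, lipid-modified signals that bind Frizzled receptors together with a co-receptor. In the branch that acts through beta-catenin, binding to Frizzled and LRP5 or LRP6 recruits Dishevelled and stalls a complex of Axin, APC and GSK3 that otherwise marks beta-catenin for destruction, so that beta-catenin reaches TCF/LEF factors on its target genes. Several targets, among them Axin2, Lgr5, Rnf43, Znrf3, Nkd1, Notum and Sp5, feed back on the pathway. In neural stem cells Wnt signals are known for roles in division, regional identity and differentiation, and other branches through ROR and RYK receptors act on cell polarity and axon growth.

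Promoter windows from RefSeq (GRCm38.p6, 250 bases before to 50 after a transcript start, 5′ to 3′ on the gene's strand) are shown for 3 of the members that differed between the groups and for Sp5, a direct target that was close to the detection limit. Capitals mark matches on either strand to CTTTGAT, the core bound by TCF/LEF factors, or to CTTTGNN, the same core with its last 2 bases free.
Axin2, chr11:108920099-108920398 (+): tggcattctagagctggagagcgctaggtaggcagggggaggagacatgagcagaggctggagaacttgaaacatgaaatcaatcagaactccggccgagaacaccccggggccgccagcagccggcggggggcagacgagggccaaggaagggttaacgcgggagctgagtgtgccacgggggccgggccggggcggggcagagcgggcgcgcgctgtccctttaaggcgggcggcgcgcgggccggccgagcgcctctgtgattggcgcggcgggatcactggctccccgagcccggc
Dvl1, chr4:155847152-155847451 (+): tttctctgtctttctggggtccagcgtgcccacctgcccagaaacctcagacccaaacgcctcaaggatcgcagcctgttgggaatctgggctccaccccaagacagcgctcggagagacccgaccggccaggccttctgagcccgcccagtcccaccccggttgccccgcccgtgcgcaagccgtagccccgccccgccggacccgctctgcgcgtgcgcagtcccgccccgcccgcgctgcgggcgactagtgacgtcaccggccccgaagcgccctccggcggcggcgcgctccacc
Dvl2, chr11:70000342-70000641 (+): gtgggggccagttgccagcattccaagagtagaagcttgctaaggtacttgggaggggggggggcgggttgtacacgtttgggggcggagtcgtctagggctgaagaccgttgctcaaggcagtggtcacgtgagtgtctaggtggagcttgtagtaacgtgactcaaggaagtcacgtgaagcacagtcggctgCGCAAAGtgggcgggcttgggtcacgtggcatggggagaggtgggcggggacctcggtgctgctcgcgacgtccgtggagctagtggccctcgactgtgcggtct
Sp5, chr2:70474673-70474972 (+): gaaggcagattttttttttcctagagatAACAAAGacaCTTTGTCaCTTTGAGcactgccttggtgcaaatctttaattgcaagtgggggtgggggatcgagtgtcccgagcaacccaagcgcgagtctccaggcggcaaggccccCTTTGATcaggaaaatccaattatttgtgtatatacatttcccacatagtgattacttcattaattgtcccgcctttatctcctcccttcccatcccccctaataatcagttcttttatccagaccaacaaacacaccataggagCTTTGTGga
The Axin2 and Dvl1 windows held no match. Dvl2 had 1 match to CTTTGNN, and Sp5 had 1 match to CTTTGAT and 4 to CTTTGNN alone. Fzd10, another member that differed, had 1 match to CTTTGNN in a window not shown. Of the 51 members 35 had a window in the table, with 45 windows in all. CTTTGAT was found in 3 of these, or 6.67%, those of Sp5, Wnt11 and Wnt5b, against 3.73% of all 32851 windows. CTTTGNN other than CTTTGAT was found in 51.1% of the member windows and 52.0% of all windows. A match describes letters in these windows and is not evidence of binding.

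Total counts ranged from 33748880 to 34554537 per library, so that 3 counts, the limit that a count of 0 allows, correspond to 0.0840 to 0.0922 counts per 1000000 of the scaled library total (CPM). Markers of neural stem cells and radial glia were present, with all 15 above 1 CPM on average. Their summed level was 8384 and 8449 CPM in EF and 9719 and 9497 CPM in noEF, and 4 of the 15 were called lower. Without Fabp7, the most abundant of them, the sum was 6102 and 6001 CPM in EF against 6166 and 6340.5 CPM in noEF. Markers of dividing cells summed to 1475 and 1388 CPM in EF against 881 and 879 CPM in noEF, with 12 of 12 called higher. Astrocyte markers summed to 9508 and 9854 CPM against 15150.0 and 14264 CPM, with 6 of 10 called lower. Of 8 microglial and macrophage markers 6 had no count in any library, of 8 endothelial markers Cdh5 and Tie1 had none, and of 10 fibroblast and mural markers Lum and Foxd1 had none. The endothelial sum was 4.26 and 3.47 CPM in EF against 1.91 and 2.26 CPM in noEF, and the fibroblast and mural sum 10.3 and 6.56 CPM against 4.67 and 4.55 CPM. The latter was mostly Acta2, without which it was 1.65 and 1.72 CPM against 1.54 and 1.67 CPM. Neuronal markers summed to 569.6 and 545 CPM in EF and 459.6 and 536 CPM in noEF, but without Map2 the other 9 summed to 41.0 and 47.9 CPM in EF and to 48.3 and 54.9 CPM in noEF, the other way round. Markers of the oligodendrocyte lineage summed to 2458 and 2805 against 2579 and 2428 CPM, and ependymal and choroid plexus markers to 32.5 and 31.5 against 50.0 and 43.5 CPM. The part of these differences in the results on Wnt genes was not tested. In bulk RNA, fewer cells of a type and less RNA per cell cannot be told apart.

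Stimulated and unstimulated tissue were compared to see which Wnt pathway transcripts differ. Axin2, Fzd10, Lrp5 and Dvl1 were higher in EF by 1.34-fold to 1.65-fold and Dvl2 was 1.62-fold lower. They were the 5 members called at an adjusted p under 0.05 in the quasi-likelihood test of edgeR, with p-values adjusted by Benjamini-Hochberg over all 14263 genes tested. Of the 51 members 46 passed the filter on low counts, so 8.70% of the tested members were called higher and 2.17% lower, where 3.83% and 4.99% of all tested genes were. In either direction 10.9% of the tested members and 8.82% of all tested genes were called, a share near the background. The members were chosen with earlier results of these data known, so shares of members are given only as descriptions. The median log2 fold change of the tested members was 0.10 against 0.01 over all tested genes. At an unadjusted p under 0.05, 10 members were higher and 3 lower. Together these were 28.3% of those tested, against 23.8% of all tested genes (11.3% higher and 12.5% lower). The EF libraries lay wholly above the noEF libraries for 16 of the tested members (34.8%) and wholly below for 11 (23.9%). Over all tested genes 27.6% and 26.8% did so.

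**Figure D1:**
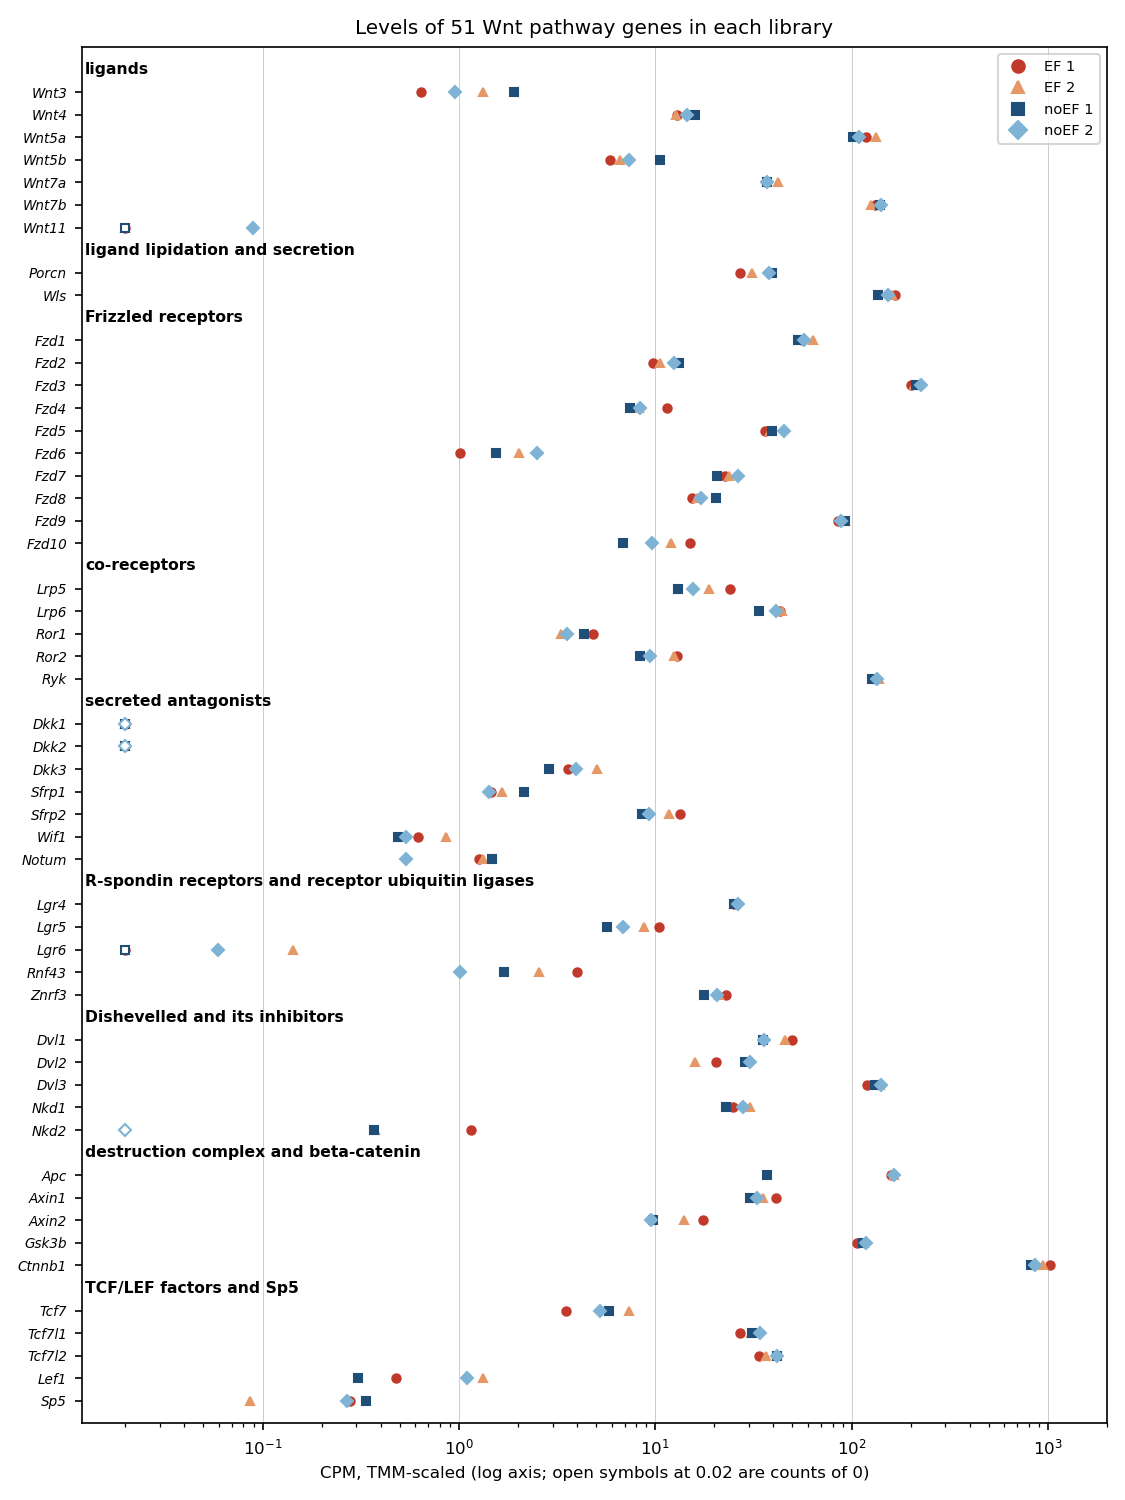
Level of each of the 51 members in the 4 libraries, in CPM on a log axis, grouped by role, with open symbols for counts of 0. Ctnnb1 sits highest at 820.4 to 1027 CPM, Dkk1 and Dkk2 are at 0 in all libraries, and Apc is far lower in noEF 1 than in the other 3.

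**Figure D2:**
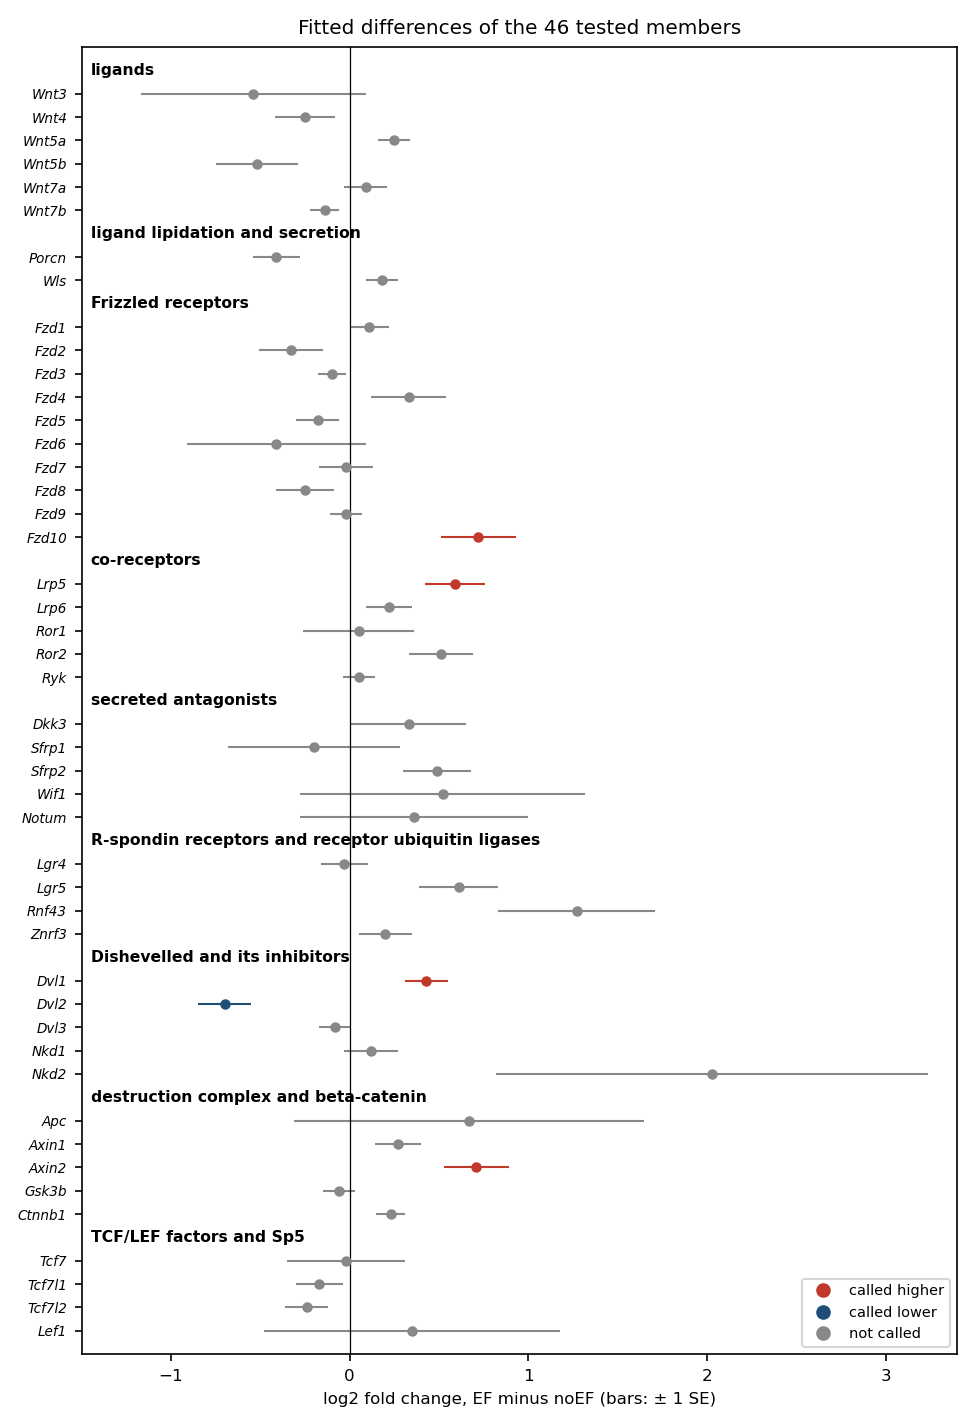
Log2 fold change of EF minus noEF with 1 SE for the 46 tested members, by role. Axin2, Fzd10, Lrp5 and Dvl1 (red) were called higher and Dvl2 (blue) lower, and the other 41 members (grey) were not called.

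Among the ligands, expression was carried by Wnt7b, Wnt5a and Wnt7a. Per kilobase of exon, which allows genes to be compared, Wnt7b and Wnt5a had mean levels over the 4 libraries of 27.4 and 14.8 CPM per kilobase, and the 3 genes made up at least 41.3%, 21.2% and 18.9% of the summed level of the 7 ligands in a library. Wnt7a and Wnt7b are ligands of the developing forebrain and spinal cord that also act on brain vessels, and Wnt5a is best known for signalling without beta-catenin. Wnt7b was at 131 and 125 CPM in EF and 139 and 142 CPM in noEF, and Wnt5a at 119 and 133 CPM against 102 and 109 CPM. Both had groups that did not overlap, in opposite directions, and neither passed the test (log2 fold changes -0.14 and 0.25, edgeR adjusted p = 0.355 and 0.106). Wnt5b, a close relative of Wnt5a, was at 5.91 and 6.62 CPM in EF and 10.6 and 7.34 CPM in noEF, with a difference of -0.52 (log2, SE 0.23, edgeR adjusted p = 0.188). The paralogs Wnt5a and Wnt5b thus had fitted differences of opposite sign, and neither was called. Wnt7a was at 36.5 and 42.2 CPM in EF and at 37.0 and 37.1 CPM in noEF, with overlapping groups (0.09, edgeR adjusted p = 0.731). Wnt4 was at 12.8 to 15.9 CPM and Wnt3 at 0.644 to 1.91 CPM, and neither was called. Wnt11 had 0 counts in EF and 3 in noEF, all in noEF 2, which is too few for a fold. The summed level of the ligands per kilobase was 58.8 and 61.7 in EF and 61.5 and 61.2 in noEF, so the groups overlapped.

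Ligand export depends on Porcn, the acyltransferase that adds the lipid, and on Wls, the carrier that takes the lipid-modified protein to the surface. Porcn was at 26.9 and 31.3 CPM in EF and at 39.5 and 37.9 CPM in noEF. Both EF libraries were below both noEF libraries, with a log2 fold change of -0.41 (SE 0.13) that missed the threshold (edgeR adjusted p = 0.0583). Porcn was called lower in 4 of 13 alternatives: with no filter (edgeR adjusted p = 0.0225), with a filter of 1 CPM in 2 libraries (0.0464), without noEF 2 (0.0496), and by limma-voom (adjusted p = 0.0490). Wls was at 167 and 161 CPM in EF and at 136 and 154 CPM in noEF, the other way round, and was not called (0.18, SE 0.09, edgeR adjusted p = 0.244). Porcn took 32.1% and 36.2% of the summed level of the pair per kilobase in EF and 46.0% and 41.9% in noEF.

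Of the 10 Frizzled receptors, all tested, Fzd10 alone was called. Fzd10 (ENSMUSG00000081683, GRCm38 chromosome 5, 128600844 to 128604093, plus strand) was at 15.1 and 12.1 CPM in EF and at 6.85 and 9.58 CPM in noEF. Both EF libraries were above both noEF libraries, with means of 13.6 ± 2.11 and 8.21 ± 1.93 CPM (SD, n = 2 each). Its log2 fold change was 0.72 (SE 0.21, edgeR adjusted p = 0.0437), and it was called in 9 of 13 alternatives. Among those without a call were the fits without EF 1 (0.56) and without noEF 1 (0.51), and DESeq2 (adjusted p = 0.0686). Fzd10 is a minor receptor here, at 3.97% to 5.25% of the summed Frizzled level per kilobase in EF and 2.33% to 3.16% in noEF.

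The main Frizzled transcripts were those of Fzd9, Fzd3 and Fzd1, at 39.2, 16.5 and 13.7 CPM per kilobase. Fzd3 is known for guiding axon tracts together with planar cell polarity proteins. Fzd9 was at 85.8 and 92.8 CPM in EF and at 92.8 and 88.2 CPM in noEF, so the groups overlapped (log2 fold change -0.02, SE 0.09, edgeR adjusted p = 0.932). Fzd3 was at 200.0 and 208 CPM in EF and at 212 and 225 CPM in noEF, without a call (-0.10, SE 0.08, edgeR adjusted p = 0.514). After each library was corrected for gene length and GC content, its value was -0.26 and it was called (edgeR adjusted p = 0.0278). The other uncalled Frizzleds had log2 fold changes of -0.41 (Fzd6) to 0.33 (Fzd4). The summed level per kilobase of all 10 Frizzled receptors was 88.4 and 93.7 in EF and 90.5 and 93.2 in noEF.

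**Figure D3:**
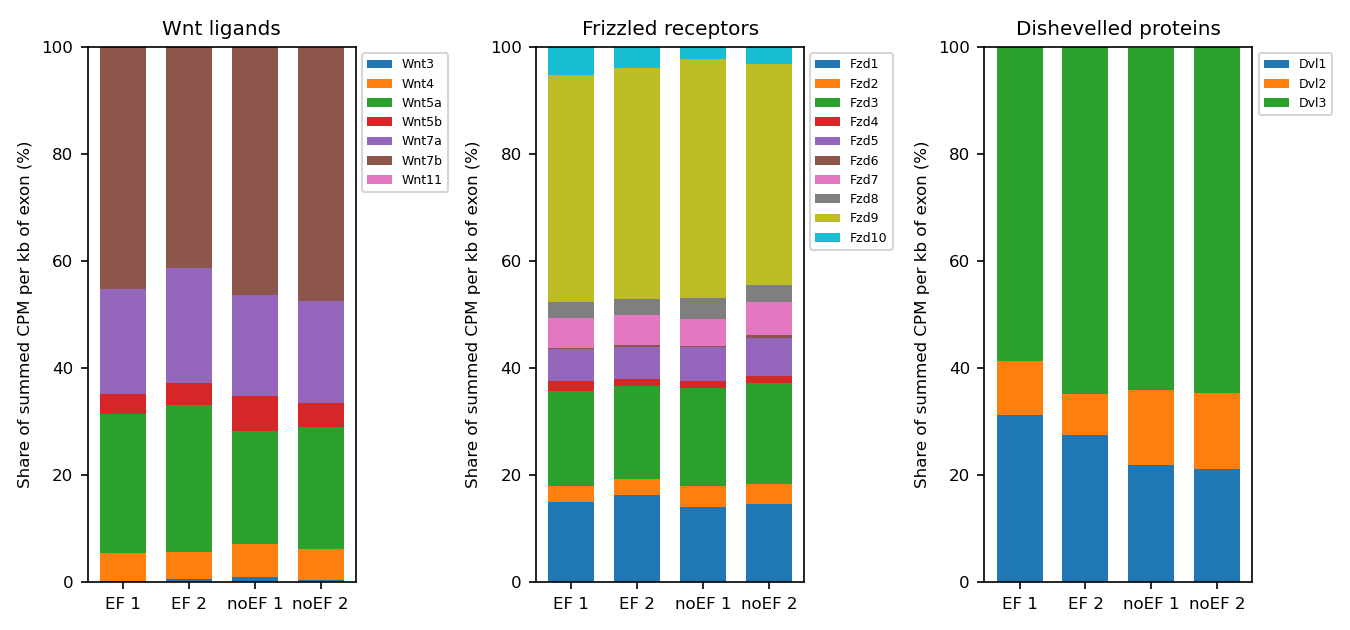
Share of each gene in the summed level per kilobase of exon, in percent, for the 7 ligands, the 10 Frizzled receptors and the 3 Dishevelled genes in each library. Wnt7b and Fzd9 are the largest blocks of the first 2 panels in every library, and in the third Dvl1 takes 27.5% to 31.3% in EF and 21.1% to 21.9% in noEF.

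Each of the 5 co-receptor genes had a log2 fold change above 0, where 51.1% of all tested genes did. Ryk and Ror1 were at 0.05 each, with overlapping groups. Lrp5 alone was called, or 20.0% of the co-receptor genes against 8.82% of all tested genes in either direction. Lrp5 (ENSMUSG00000024913, chromosome 19, 3584828 to 3686564, minus strand), a co-receptor of the beta-catenin branch, was at 24.1 and 18.9 CPM in EF and at 13.0 and 15.6 CPM in noEF. The groups did not overlap, and the log2 fold change was 0.59 (SE 0.17, edgeR adjusted p = 0.0457). Lrp5 was called in 7 of 13 alternatives. Among those without a call were the fits without EF 1 (0.40) and without noEF 1 (0.46). It was also not called with DESeq2's size factors in edgeR (adjusted p = 0.0503) or by DESeq2 itself (adjusted p = 0.0623). Its relative Lrp6, the more abundant of the pair at 2.98 against 1.84 CPM per kilobase, was at 43.3 and 44.3 CPM in EF and at 33.9 and 41.2 CPM in noEF (0.22, SE 0.13, edgeR adjusted p = 0.310).

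The receptors of the other branches were led by Ryk, an atypical kinase that binds Wnts on growing axons, at 29.3 CPM per kilobase. Ryk was at 133 and 138 CPM in EF and at 127 and 135 CPM in noEF, and the groups overlapped (0.05, SE 0.09, edgeR adjusted p = 0.782). Ror2, a receptor kinase for Wnt5a, was at 12.9 and 12.4 CPM in EF and at 8.33 and 9.46 CPM in noEF. Those groups did not overlap, with an edgeR adjusted p of 0.103 (0.51, SE 0.18). Ror1 overlapped between the groups, at 3.32 to 4.85 CPM (0.05, SE 0.31, edgeR adjusted p = 0.945).

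Secreted antagonists were sparse. Dkk1 and Dkk2, which block LRP5 and LRP6, had 0 counts in all 4 libraries, which allows at most 0.0922 CPM in a library. Sfrp2, a Frizzled-like decoy, made up 64.8% to 73.9% of the summed antagonist level per kilobase. It was at 13.3 and 11.8 CPM in EF and at 8.57 and 9.34 CPM in noEF, with both EF libraries higher, and it missed the threshold (0.49, SE 0.19, edgeR adjusted p = 0.119). Corrected for gene length and GC content it was called (0.63, edgeR adjusted p = 0.0408). Dkk3, a divergent Dickkopf protein, was at 3.59 and 5.04 CPM in EF and at 2.89 and 3.95 CPM in noEF, which overlap. Notum, a secreted enzyme that strips the lipid from Wnts and is a feedback target, was at 1.26 and 1.32 CPM in EF and at 1.47 and 0.535 CPM in noEF. Its 2 noEF libraries enclosed both EF libraries, and without noEF 2 its log2 fold change of 0.36 turned to -0.20 (edgeR adjusted p = 0.912). Sfrp1 and Wif1, both Wnt-binding proteins, stayed between 0.492 and 2.15 CPM and were not called.

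R-spondin receptors and the ubiquitin ligases they restrain set how many Frizzled receptors stay at the surface. Lgr5, a receptor of this class and a target of the pathway, was at 10.4 and 8.74 CPM in EF and at 5.65 and 6.87 CPM in noEF. Rnf43, a ligase that removes Frizzled from the surface, was at 3.98 and 2.55 CPM in EF and at 1.69 and 1.01 CPM in noEF. Both EF libraries exceeded both noEF libraries for each gene, and neither passed the test (log2 fold changes 0.61, SE 0.22, and 1.27, SE 0.44; edgeR adjusted p = 0.0931 and 0.0852). Rnf43 was called without noEF 1 (1.69, edgeR adjusted p = 0.0416) and with no filter (edgeR adjusted p = 0.0275), and Lgr5 with library totals in place of TMM (0.70, edgeR adjusted p = 0.0468). Znrf3, the second ligase, was at 22.9 and 21.2 CPM in EF and at 17.7 and 20.7 CPM in noEF (0.20, SE 0.15, edgeR adjusted p = 0.460). Lgr4, the most abundant of these genes at 4.33 CPM per kilobase, was at 25.2 and 25.3 CPM in EF and at 25.2 and 26.3 CPM in noEF. The groups overlapped, with a difference of -0.03 on the log2 scale (SE 0.13, edgeR adjusted p = 0.930). Lgr6 had 5 counts in EF and 2 in noEF, a ratio of 2.49 with an exact 95% interval of 0.407 to 26.1 that covers counting error only.

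Of the Dishevelled genes, which encode the cytoplasmic adaptors of Frizzled, Dvl1 and Dvl2 moved in opposite directions and Dvl3 was not called. Dvl1 (ENSMUSG00000029071, chromosome 4, 155847402 to 155859303, plus strand) was at 50.0 and 45.7 CPM in EF and at 35.4 and 35.9 CPM in noEF. Dvl2 (ENSMUSG00000020888, chromosome 11, 70000595 to 70012301, plus strand) was at 20.3 and 16.0 CPM in EF and at 28.7 and 30.4 CPM in noEF. In neither gene did the groups overlap: Dvl1 rose by 0.43 (SE 0.12, edgeR adjusted p = 0.0344) and Dvl2 fell by 0.70 (SE 0.15, edgeR adjusted p = 0.0103) on the log2 scale. Dvl2 had the smallest p-value among the members. Its call was lost without EF 2 (-0.54, edgeR adjusted p = 0.0856) and was present in the other 12 of 13 alternatives. Dvl1 was called in 8 of 13 alternatives. Among those without a call were the fits without EF 1 (0.36), without EF 2 (0.49) and without noEF 1 (0.42).

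Dvl3, the most abundant of the trio at 20.8 CPM per kilobase, was at 120.2 and 139 CPM in EF and at 132 and 141 CPM in noEF, which overlap (-0.08, SE 0.09, edgeR adjusted p = 0.663). Summed over the trio, the level per kilobase was 32.0 and 33.3 in EF and 32.3 and 34.1 in noEF. Dvl2 made up 10.1% and 7.64% of that sum in EF and 14.1% and 14.2% in noEF. Exons of Dvl2 share 1151 bases with Acadvl on the opposite strand, and without strand information reads there cannot be assigned to either gene. Acadvl, a mitochondrial fatty acid dehydrogenase gene, was at 267 and 245 CPM in EF and at 282 and 271 CPM in noEF, and its difference was -0.11 on the log2 scale (SE 0.08, edgeR adjusted p = 0.465). Dvl1 shares 36 exonic bases with Tas1r3, which had 5 to 26 counts in a library.

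Naked cuticle genes encode inhibitors that bind Dishevelled. Nkd1 was at 25.0 and 30.5 CPM in EF and at 23.0 and 28.1 CPM in noEF, and the groups overlapped (0.12, SE 0.15, edgeR adjusted p = 0.694). Nkd2 was at 1.15 and 0.373 CPM in EF, and at 0.369 CPM in noEF 1 and 0 in noEF 2. It passed the filter through the EF libraries, so its fitted value of 2.03 (log2, SE 1.21, edgeR adjusted p = 0.343) is given as a description.

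**Figure D4:**
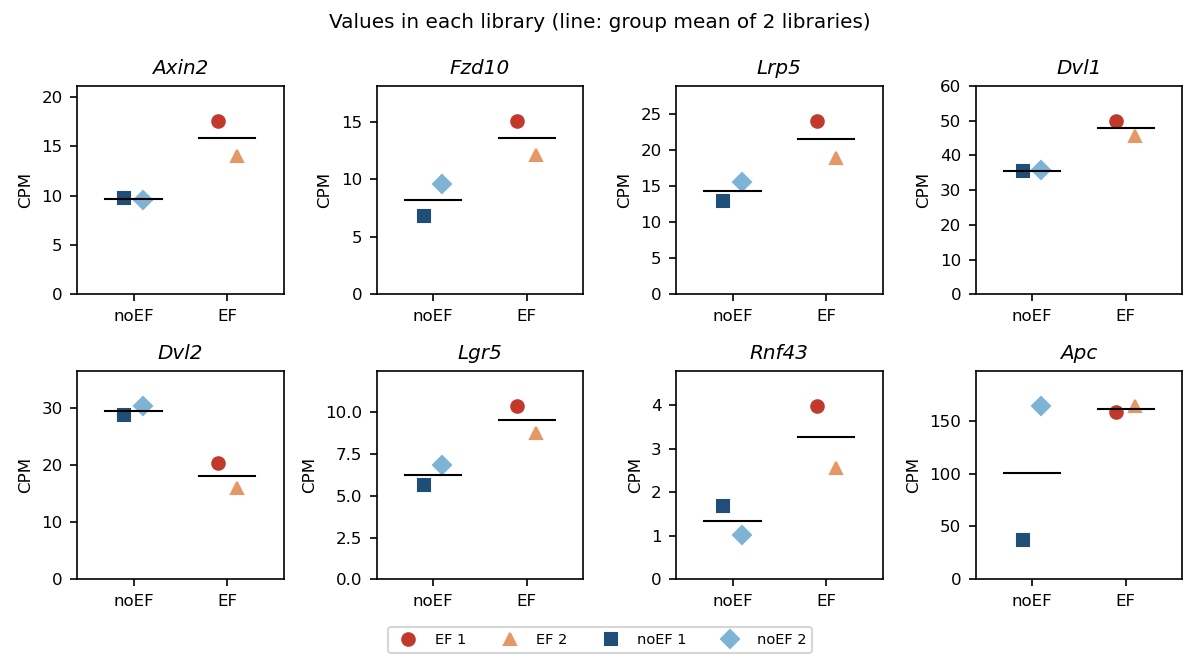
CPM in each library for the 5 called members and for Lgr5, Rnf43 and Apc, with lines at the group means. In the 5 called genes and in Lgr5 and Rnf43 the groups do not overlap, and for Apc noEF 1 stands at 37.1 CPM against 158 to 164 CPM in the other libraries.

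In the destruction complex, Axin2 was higher in EF while its paralog Axin1 and the kinase gene Gsk3b were not called. Axin2 (ENSMUSG00000000142, chromosome 11, 108920349 to 108950783, plus strand) encodes a scaffold of the complex and is a widely used readout of beta-catenin signalling. It was at 17.6 and 14.0 CPM in EF and at 9.77 and 9.55 CPM in noEF, with means of 15.8 ± 2.55 and 9.66 ± 0.160 CPM (SD, n = 2 each). Both EF libraries lay above both noEF libraries, and the log2 fold change was 0.71 (SE 0.18, edgeR adjusted p = 0.0257). Without EF 1 it was 0.54 and not called (edgeR adjusted p = 0.237). Axin2 was called in 11 of 13 alternatives, among them DESeq2 (adjusted p = 0.0353) and limma-voom (adjusted p = 0.0285). It was also not called with replicate number as a further term and the correction for gene length and GC content together (0.67, edgeR adjusted p = 0.0543).

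Axin1, the constitutive scaffold, was at 41.1 and 35.4 CPM in EF and at 30.3 and 32.9 CPM in noEF (0.27, SE 0.13, edgeR adjusted p = 0.214). Gsk3b, the kinase that phosphorylates beta-catenin, was at 106 and 116 CPM in EF and at 114 and 118 CPM in noEF, which overlap (-0.06, SE 0.09, edgeR adjusted p = 0.744). Ctnnb1, which encodes beta-catenin and also serves cell adhesion, had the highest level of all members at 176 CPM per kilobase. It was at 1027 and 940.3 CPM in EF and at 820.4 and 860.3 CPM in noEF. The groups did not overlap, and the log2 fold change of 0.23 (SE 0.08) missed the threshold (edgeR adjusted p = 0.0963) except with library totals (0.31, edgeR adjusted p = 0.0213). Its exons share 759 bases with Ulk4 on the opposite strand, which was at 1.87 to 3.89 CPM.

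Apc, the large scaffold that holds beta-catenin in the complex, was singled out after its values were seen. It was at 158 and 164 CPM in EF and at 164 CPM in noEF 2, but at 37.1 CPM in noEF 1, 1207 counts against 5530 in its replicate. The gap between the noEF libraries was 4.43-fold. On the log2 scale with 0.5 CPM added, a gap at least as large as that of Apc was found in 39 of the 14263 tested genes. Of the 7350 with a mean of at least 20 CPM, 13 had such a gap. Both counts include Apc itself. Exons of Apc overlap no other gene of the table. The log2 fold change was 0.67 (SE 0.98, edgeR adjusted p = 0.780). It was -0.03 without noEF 1 (edgeR adjusted p = 0.942) and 2.11 without noEF 2 (edgeR adjusted p = 2.70e-32), so the value rests on noEF 1.

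None of the TCF/LEF factors, which bring beta-catenin to DNA, was called in the reported edgeR fit, and none had an unadjusted p under 0.05 there. Over all tested genes 8.82% were called in either direction, and 23.8% had an unadjusted p under 0.05. Tcf7l1, mostly a repressor, and Tcf7l2 were the main TCF/LEF factors, at 7.85 and 4.39 CPM per kilobase. Tcf7l1 was at 27.0 and 30.9 CPM in EF and at 31.1 and 34.1 CPM in noEF (-0.17, SE 0.13, edgeR adjusted p = 0.484). Tcf7l2 was at 33.9 and 36.8 CPM in EF and at 41.6 and 41.9 CPM in noEF (-0.24, SE 0.12, edgeR adjusted p = 0.241). The groups did not overlap for either gene, with EF below. Corrected for gene length and GC content, Tcf7l2 was called (-0.36, edgeR adjusted p = 0.0480). Tcf7 was at 3.50 and 7.39 CPM in EF and at 5.84 and 5.23 CPM in noEF, so the EF libraries enclosed the noEF ones.

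Lef1 and Sp5 were nearly absent. Lef1, a factor that is itself a common target, was at 0.476 and 1.32 CPM in EF and at 0.307 and 1.10 CPM in noEF. Lef1 was lower in EF 1 and noEF 1 than in EF 2 and noEF 2, and its log2 fold change was 0.35 (SE 0.83, edgeR adjusted p = 0.855). Sp5, a repressor induced directly by beta-catenin, had 13 counts in EF and 20 in noEF. The ratio was 0.647, with an exact 95% interval of 0.296 to 1.37 that covers counting error only. Of the 9 members listed as feedback genes and targets (Axin2, Lef1, Sp5, Nkd1, Notum, Tcf7, Rnf43, Znrf3 and Lgr5), 8 were tested and 1 was called, or 12.5% against 8.82% of all tested genes in either direction, a share near the background.

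**Figure D5:**
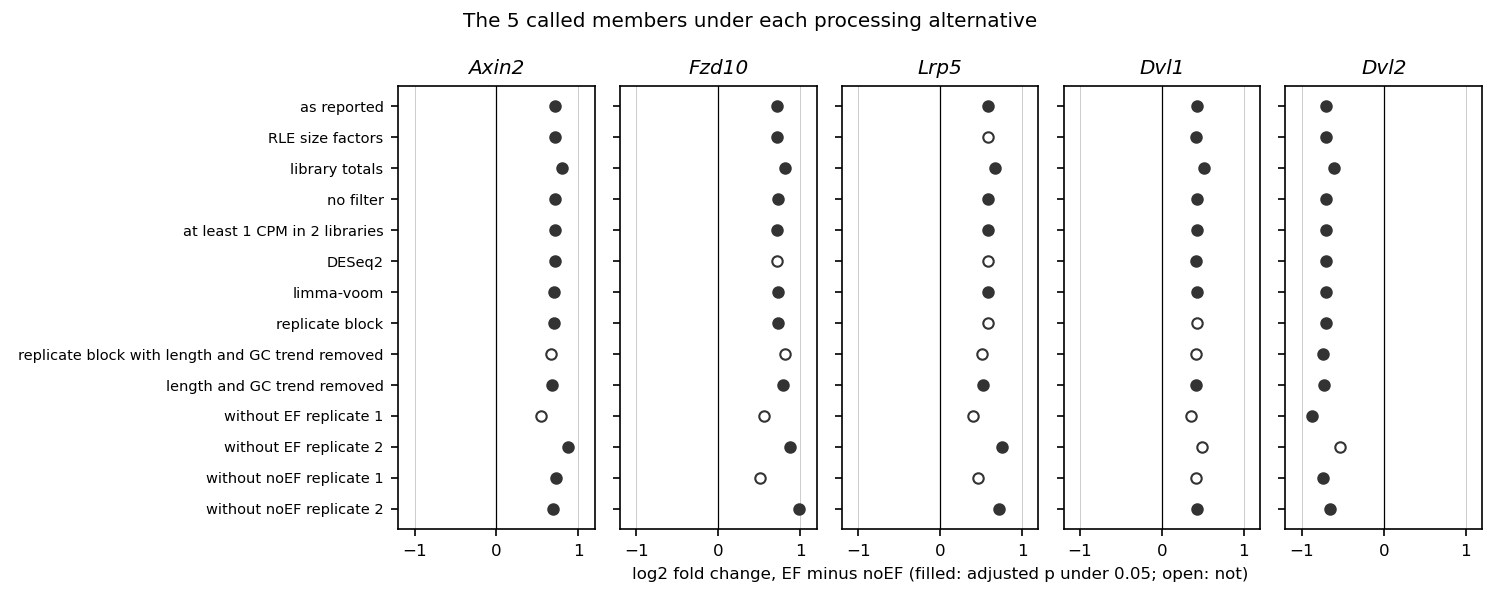
Log2 fold change of the 5 called members as reported and under each of 13 alternatives, with filled points where the adjusted p was under 0.05. All points keep their sign, Dvl2 is filled in 12 alternatives and Axin2 in 11, and Fzd10, Lrp5 and Dvl1 lose their call more often.

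In each of the 4 higher members EF 1 was above EF 2, and the count of higher members changed with the scaling and when a library was left out. A fit without a library has 1 sample in that group, which is assumed to vary like the other group, and fewer residual degrees of freedom. When plain library totals replaced TMM scaling, 8 members were higher and 1 lower, and the share of higher genes among all calls went from 43.4% to 69.3%. Without EF 1, 0 members were called higher by edgeR (4 at an unadjusted p under 0.05), and Dvl2 was the single lower one. Without noEF 1, Axin2 and Rnf43 were higher, and without EF 2 Axin2, Fzd10 and Lrp5 were. Without noEF 2 there were 5 higher members, Apc among them, and 2 lower. Without EF 2 0 members were called lower (3 at an unadjusted p under 0.05).

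The rest of the pathway was represented by 127 further genes in 6 lists, of which 100 were tested. Of these 5 were called higher and 3 lower, where 8.82% of all tested genes were called in either direction, with a median log2 fold change of 0.09. With library totals 11 were called higher and 0 lower by edgeR (6 lower at an unadjusted p under 0.05). Of 12 other Wnt ligands 6 had no count in any library, among them Wnt1 and Wnt3a, classic ligands of the beta-catenin branch. The 2 that were tested, Wnt6 and Wnt9a, were not called, and Wnt9a was at 1.23 and 0.917 CPM in EF and at 1.63 and 2.29 CPM in noEF (-0.86, SE 0.51, edgeR adjusted p = 0.335). Rspo2, Rspo3 and Rspo4, ligands of the LGR receptors, had no counts. Rspo1, another such ligand, was at 0.476 and 0.344 CPM in EF and at 0.307 and 0.357 CPM in noEF. It was not called (0.30, SE 0.97, edgeR adjusted p = 0.895).

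Among 29 other extracellular and membrane regulators, 19 of them tested, 3 were higher (15.8%) and 1 lower (5.26%), where 3.83% and 4.99% of all tested genes were. This list too was chosen with earlier results of these data known, so its shares are only descriptions. Kremen1, a receptor for Dickkopf proteins, was at 45.0 and 43.2 CPM in EF and at 27.6 and 31.9 CPM in noEF (0.57, SE 0.13, edgeR adjusted p = 0.0118). It was not called without EF 1 (edgeR adjusted p = 0.0665). Gpc4, a glypican that binds Wnts, was at 63.0 and 56.9 CPM in EF and at 38.0 and 41.2 CPM in noEF (0.60, SE 0.11, edgeR adjusted p = 0.00436). Tnfrsf19, a receptor of the tumour necrosis factor family known as a Wnt target, was at 113 and 103 CPM in EF and at 77.8 and 75.5 CPM in noEF (0.50, SE 0.09, edgeR adjusted p = 0.00412). Gpc4 and Tnfrsf19 were called in all 13 alternatives. Ndp, which encodes norrin, a ligand of FZD4, was lower at 47.0 and 41.2 CPM against 58.9 and 57.5 CPM (-0.40, SE 0.11, edgeR adjusted p = 0.0373). Its call was present in 6 of 13 alternatives, and it was lost without EF 1, without EF 2 and without noEF 1 (edgeR adjusted p = 0.0608, 0.228 and 0.0748).

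Inside the cell, 0 of 24 other cytoplasmic components were called by edgeR, where 8.82% of all tested genes were. At an unadjusted p under 0.05, 2 were higher and 0 lower, or 8.33% against 23.8% of all tested genes. Usp34, a deubiquitinase of Axin, had the smallest p of that list, at 69.8 and 55.7 CPM in EF and 38.9 and 51.7 CPM in noEF (0.47, SE 0.16, edgeR adjusted p = 0.0971). It was called by DESeq2 (adjusted p = 0.0468), and by edgeR without EF 2, without noEF 2 and with no filter (adjusted p = 0.0210, 1.47e-04 and 7.72e-04). Of 20 nuclear cofactors 0 were called higher and 1 lower, or 5.00% lower against 4.99% of all tested genes. The lower one was Cby1, an antagonist of beta-catenin. It was at 50.7 and 58.3 CPM in EF and at 73.3 and 69.3 CPM in noEF (-0.39, SE 0.11, edgeR adjusted p = 0.0332). Corrected for gene length and GC content, its value was -0.09 and not called (edgeR adjusted p = 0.597), and it was also not called without EF 1 (edgeR adjusted p = 0.327) or without noEF 1 (edgeR adjusted p = 0.0910).

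Of 14 tested genes among 20 other known targets, Ccnd1 was higher and Id2 lower, or 14.3% against 8.82% of all tested genes in either direction. Ccnd1, which encodes cyclin D1 of the cell cycle and is driven by several pathways, was at 698 and 689 CPM in EF and at 496 and 518 CPM in noEF (0.45, SE 0.08, edgeR adjusted p = 0.00255) and was called in all 13 alternatives. Id2, an inhibitor of neurogenic transcription factors, was at 108 and 113 CPM in EF and at 137 and 141 CPM in noEF (-0.33, SE 0.09, edgeR adjusted p = 0.0264). It was not called without EF 1 or without EF 2 (edgeR adjusted p = 0.198 and 0.0530). Of 21 tested planar cell polarity genes 1 was called higher and 0 lower, or 4.76% higher against 3.83% of all tested genes. The higher one was Rock2, a kinase that acts on the cytoskeleton below RhoA. It was at 115 and 104 CPM in EF and at 76.4 and 90.9 CPM in noEF (0.39, SE 0.10, edgeR adjusted p = 0.0291). Its call was lost without EF 1, without noEF 1 and with the correction for gene length and GC content (edgeR adjusted p = 0.209, 0.174 and 0.0757). The markers of dividing cells, of which 12 of 12 were higher, moved in the same direction as Ccnd1 and Axin2 and opposite to Id2. Of the 14 tested other known targets, 8 had a log2 fold change above 0 and 6 below. The part of the dividing cell markers in these results was not tested.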

How the data were processed

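Polyadenylated RNA was captured on oligo(dT) beads, fragmented and copied from random hexamers, per the labels' protocols, which describe no step that keeps strand. The authors deposited whole-number read counts for each gene in each library. Per the submitters' processing notes, HISAT2 2.0.4, StringTie 2.2.1, DESeq2 1.44.0 and GRCm38 were used. How reads were counted, and whether by strand, is not given in the sources used here.

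Counts were tested with edgeR 4.0.16 in R 4.3.3: filterByExpr (minimum count 10, minimum total 15), TMM scaling, robust quasi-likelihood F test, group as the only term, two-sided, Benjamini-Hochberg adjustment over all 14263 genes tested, called under 0.05. Fold changes are EF minus noEF, SE is the log2 fold change over the root of F, and CPM uses TMM-scaled totals. Exon lengths, coordinates and overlaps came from GENCODE M21 on GRCm38 (22022 genes matched) with bedtools 2.31.1. Alternatives were other scalings and filters, DESeq2 1.42.0, limma-voom (limma 3.58.1), a replicate block, a spline correction for length and GC (5 degrees of freedom each) and each library left out. The model was tested on simulated data.

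The members and lists were chosen with earlier results of these data known. Named with values are called members, those with an unadjusted p under 0.05, the 2 highest per kilobase in each role, 9 feedback genes or targets, and called genes of the other lists or else the smallest p. Apc was added after its values were seen. Tle5 was found under its older symbol Aes.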

Additional observations from a re-analysis of the deposited data

How the results depend on the processing

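With 2 libraries per group, leaving out 1 leaves a lone sample that is assumed to vary like the other group, and the test loses residual degrees of freedom. Some calls lost in this way kept the size of their difference (Dvl1 at 0.49 without EF 2 and 0.42 without noEF 1, against 0.43). Members called higher numbered 4 as reported, 8 with library totals, 2 by DESeq2, and 0 to 5 with 1 library left out. Members called lower numbered 1 as reported, 2 with no filter, with a filter of 1 CPM or by limma-voom, 3 with the length and GC trend removed, and 0 to 2 with 1 library left out. Other pathway genes called higher numbered 5 as reported, 11 with library totals, 10 with no filter, and 3 to 11 with 1 library left out. Those called lower numbered 3 as reported, 0 by edgeR with library totals (6 at an unadjusted p under 0.05), 6 with no filter, 5 with the filter of 1 CPM or the trend removed, and 0 to 5 with 1 library left out. Over all genes, 546 were higher and 712 lower as reported, 1138 higher with library totals, 915 higher and 1203 lower with no filter, and 217 to 790 higher and 337 to 1065 lower with 1 library left out. The cause of the other changes was not tested.

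The replicate numbers of the labels were also used as a block. By library name EF 2 is E3 and noEF 2 is noEF2, so same-numbered libraries may not correspond. Deviations of same-numbered libraries from their group means had a Pearson r of -0.09 over 14263 genes. With 2 libraries per group this cannot tell whether same-numbered libraries shared a culture or a batch. Under the block 2 members were higher (Axin2 and Fzd10) and 1 lower, and 0 other pathway genes were lower (8 at an unadjusted p under 0.05). With the block and the trend removed together, 0 members were higher by edgeR (8 at an unadjusted p under 0.05), 1 other pathway gene was lower and 317 genes in all were higher.

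For 41 genes, 530 values were computed under alternatives: 449 kept direction and side of the threshold, 41 lost a call, 18 gained one and 22 changed sign. With library totals, Fzd9 was at 0.07, Lgr4 at 0.06, Dvl3 at 0.01, Gsk3b at 0.03 and Tcf7 at 0.06. With the trend removed, Fzd9 was at 0.12 (0.12 with the block), Ryk at -0.0045 (-0.0047 with the block) and Tcf7 at 0.06. With 1 library left out, the values of these genes ranged from -0.08 to 0.04 for Fzd9, -0.19 to 0.02 for Dvl3, -0.12 to 0.0020 for Gsk3b, -0.66 to 0.42 for Tcf7, -0.03 to 0.27 for Nkd1, -0.56 to 1.53 for Lef1, -0.20 to 1.26 for Notum and -0.03 to 2.11 for Apc. Without EF 1, Fzd9 was at 0.04, Dvl3 at 0.02, Gsk3b at 0.0020 and Tcf7 at 0.42. Without noEF 1, Fzd9 was at 0.02, Nkd1 at -0.02, Tcf7 at 0.06, Lef1 at -0.29 and Apc at -0.03. Without EF 2, Nkd1 was at -0.03 and Lef1 at -0.56, and without noEF 2 Notum was at -0.20. None of these sign changes was called by edgeR. The 7 tested members with a mean under 2 CPM had standard errors of 0.48 to 1.21, so their differences are known only coarsely at this depth.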
